A study of Mus musculus with 12 samples.

Results

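Collagen genes are described here in whole hearts of mice with and without both corticosteroid receptors in their cardiomyocytes. The genes were taken by name: every array probe whose gene name was Col, a number, the letter a and a number, together with Emid2, an older name of Col26a1. This gave 41 of the 27670 genes on the array, read by 79 probes, of which 60 probes of 37 genes were bright enough to be tested, meaning that in some group all 3 arrays rose well above background. The rule uses gene names alone. The untested genes were Col10a1, Col12a1, Col24a1 and Col28a1. Each of their probes was well above background on 3 or fewer of the 12 arrays.

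Collagens are proteins of the extracellular matrix in which chains with glycine at regular places wind into a triple helix. Fibrillar collagens (types I, III and V in most soft tissue) form the load-bearing fibres between heart muscle cells, and in the heart they are made mainly by fibroblasts. Type IV builds the sheet of the basement membrane around each cardiomyocyte and capillary, type VI forms beaded filaments beside it, and types II, IX and XI belong to cartilage.

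RNA came from hearts of 12 male C57BL/6 mice, 3 in each of 4 groups. The cardioGRMRdKO mice carried floxed alleles of GR (Nr3c1, the glucocorticoid receptor) and MR (Nr3c2, the mineralocorticoid receptor) and a Cre recombinase under the αMHC promoter, which acts in cardiomyocytes. Other heart cells, fibroblasts included, keep both receptors in this model. The dflox controls were littermates with the same floxed alleles and without Cre. No group carried Cre without the floxed alleles. Both genotypes were sampled at 1 and at 2 months of age, and each array held 1 animal.

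On the arrays 63.7% to 71.9% of the spots for transcripts exceeded background clearly and 0 were saturated. On its brightest probe Nr3c1 was lower in the cardioGRMRdKO hearts by 1.10 ± 0.14 (SE) on the log2 scale at 2 months (limma adjusted p = 0.00565) and by 0.73 ± 0.17 at 1 month (adjusted p = 0.119, 2 usable hearts per genotype). The whole-heart level still holds the RNA of cells in which Cre does not act. Nr3c2 did not pass the test at either age. The arrays lay on 3 slides. At 1 month the dflox arrays all lay at the outer ends of their slides and the cardioGRMRdKO arrays all lay between, so that genotype and place cannot be told apart at that age. Levels below are log2 values over the 75th percentile of the array, and a gene was called where its adjusted p was under 0.05 over 18258 genes. In a whole heart, fewer cells of a type and less RNA per cell cannot be told apart.

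Some of the probes show directly what was measured. The following 3 probes read the stretch that encodes the triple helix, with the glycine codons, 1 in every 3 codons, in capitals. They are printed because this repeat, the mark of the family, was found in only 3 of the 79 collagen probes, in genes that enter the results below.
Col5a1 triple-helix probe: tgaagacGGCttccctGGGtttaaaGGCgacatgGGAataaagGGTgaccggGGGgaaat
Col5a3 triple-helix probe: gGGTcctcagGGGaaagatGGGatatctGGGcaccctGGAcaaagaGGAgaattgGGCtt
Col11a2 triple-helix probe: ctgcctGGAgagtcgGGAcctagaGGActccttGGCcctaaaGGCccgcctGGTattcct
In mm7, the build of the file headers, they span chr2:27994034-27996457 (plus strand), chr9:20655471-20656200 (minus strand) and chr17:32131401-32131567 (plus strand). Each span is longer than the 60 bases of the probe, so each probe crosses at least 1 exon junction.

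Collagen RNA was lower in hearts of 2-month-old than of 1-month-old mice, in both genotypes. With the age difference averaged over the 2 genotypes, 20 of 37 collagen genes fell and 1 rose, where 2.61% of all genes tested fell and 1.99% rose. The median difference was -0.57 on the log2 scale for the collagens and 0.02 for all genes. Taken within dflox alone, 7 collagens fell and 0 rose (of all genes 0.246% fell and 0.307% rose), with a median of -0.70 against 0.05, and 25 were lower in all 3 older than in all 3 younger hearts (8.68% of all genes). Within cardioGRMRdKO, 3 fell and 0 rose (of all genes 0.186% fell and 0.192% rose), with a median of -0.44 against -0.02, and 18 were lower without overlap (10.8% of all genes). Of the 36 collagens measured in every heart, 16 were lower in all 3 older hearts than in all 3 younger hearts in each genotype, which 3.52% of all genes were, and 0 were higher in this way, which 2.53% of all genes were.

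**Figure D1:**
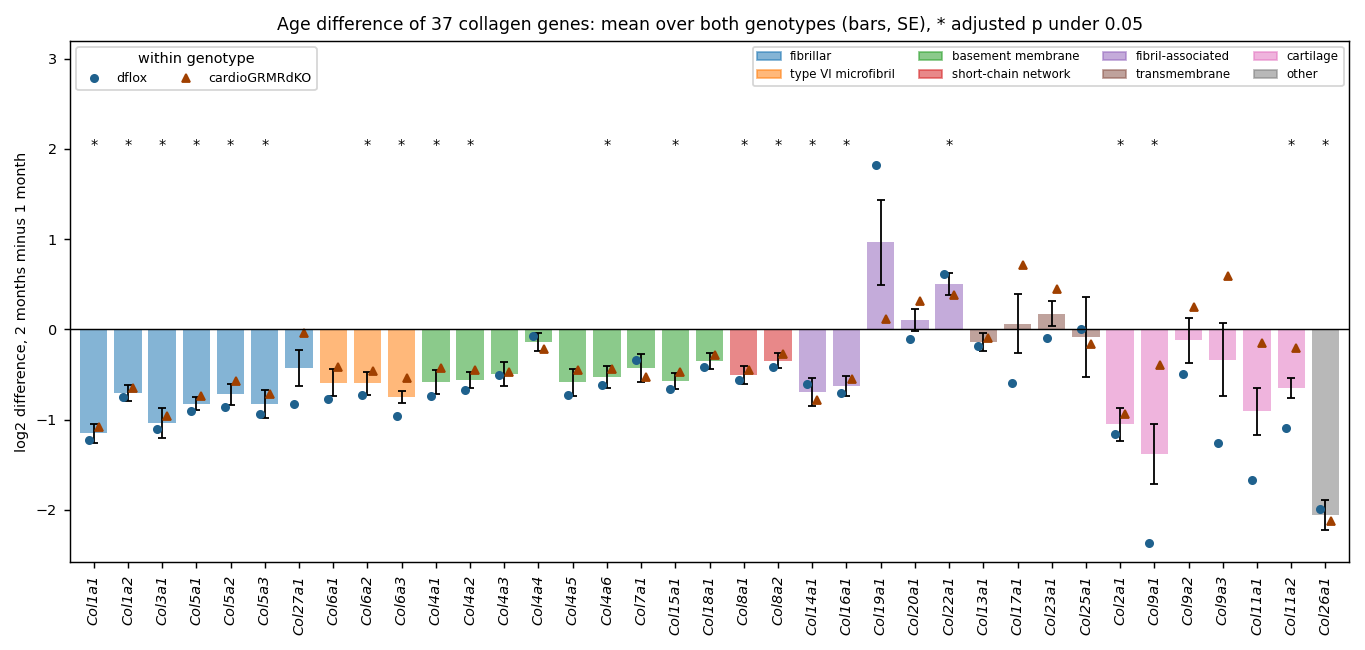
Age difference (log2, 2 months minus 1 month) of the 37 tested collagen genes. Bars are the mean over both genotypes with its SE, circles the difference within dflox, triangles that within cardioGRMRdKO, colours the collagen class, and stars mark an adjusted p under 0.05. The fibrillar, type VI, basement membrane and short-chain collagens all lie below 0, and 5 genes lie above it, Col22a1 with a star.

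The averaged age comparison was added after the values within each genotype had been seen. The 21 calls became 13 without cardioGRMRdKO 1-month replicate 1 or without replicate 3 of that group, and 14 to 20 without any other heart. They became 13 with normexp background correction or with no filter on dim probes. The median kept its sign in each of these settings and without the 4 arrays of slide 3. That last fit leaves 1 dflox heart at 2 months, so its number of calls is not given, though it is 1 of the settings counted below. The 21 differences kept their sign in all 503 combinations of gene and alternative setting that gave a value, and their call in 374. Col1a1 and Col26a1 stayed called in 24 of 24 settings, whereas Col4a1 was called in 4, Col22a1 in 7, Col4a6 in 8, Col8a2 in 9, Col14a1 in 11 and Col6a2 in 12 of 24, and Col9a1 in 8 of 23. For each gene 1 of these settings took the values of the series matrix, which equal those of the main fit, so it could not change a sign or a call. For genes read by 1 probe the mean over probes leaves their values as they were. Single probes were not among these settings. The counts within a genotype rest on single hearts. The 7 calls in dflox became 0 without dflox 1-month replicate 1, 3 without dflox 1-month replicate 3 or dflox 2-month replicate 2, 4 without dflox 2-month replicate 3 and 11 without cardioGRMRdKO 2-month replicate 3. The 3 calls in cardioGRMRdKO became 0 without cardioGRMRdKO 1-month replicate 3, and 1 without dflox 1-month replicate 3, without cardioGRMRdKO 1-month replicate 1 or without any of the 3 cardioGRMRdKO 2-month hearts.

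Slides held both ages in part. In dflox, replicates 2 and 3 lay on slide 2 at 1 month and on slide 3 at 2 months. For those hearts age and slide cannot be told apart. Within slide 1, the collagen median was -0.81 for age in dflox, with 1 heart of each age. Within slides 1, 2 and 3 it was -0.26, -0.43 and -0.56 for age in cardioGRMRdKO, again with 1 heart of each age. The same medians over all genes were -0.04 in dflox and -0.08, 0.0058 and 0.01 in cardioGRMRdKO. The sign was the same on each slide that held both ages.

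Among the fibrillar collagens, 6 of 7 fell in the averaged comparison and the median difference was -0.82. Col1a1 encodes the main chain of type I collagen, the most abundant fibre protein of the heart. It was read at chr11:95060800-95060859 (mm7, plus strand) by a probe spotted 10 times, whose spots on an array varied with an SD of 0.04 to 0.16. Its log2 level was 5.31, 5.0 and 5.41 in dflox hearts at 1 month and 3.74, 4.01 and 4.28 at 2 months. In cardioGRMRdKO hearts it was 4.97, 4.84 and 5.02 at 1 month and 3.77, 3.99 and 3.84 at 2 months. The ages did not overlap in either genotype, and the lowest younger heart stood above the highest older one. Col1a1 fell by 1.23 ± 0.15 (SE) in dflox (limma adjusted p = 0.0131) and by 1.08 ± 0.15 in cardioGRMRdKO (adjusted p = 0.0274), and averaged over both it was 2.22-fold lower (adjusted p = 0.00127). Its other 2 probes gave averaged differences of -1.15 and -1.14.

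Col1a2, the second chain of type I collagen, ran at 6.06, 6.17 and 6.19 in the younger and 5.23, 5.36 and 5.56 in the older dflox hearts. In cardioGRMRdKO hearts its level was 6.09, 5.81 and 6.02 against 5.38, 5.41 and 5.16. The groups were again apart in both genotypes. Col1a2 fell by 0.75 ± 0.12 in dflox (adjusted p = 0.0274) and by 0.70 ± 0.09 in the average (adjusted p = 0.00334), and its difference in cardioGRMRdKO was -0.65 ± 0.12 (adjusted p = 0.0612).

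Col3a1, whose chains form type III collagen in thin, distensible fibres, had levels of 6.02, 5.99 and 6.84 at 1 month and 5.15, 4.90 and 5.49 at 2 months in dflox. The cardioGRMRdKO hearts gave 5.89, 5.69 and 6.09, then 4.80, 5.10 and 4.88. dflox 1-month replicate 3 stood well above its group. Col3a1 passed the test in the average, at -1.03 ± 0.17 (adjusted p = 0.00896), and within a genotype gave -1.10 ± 0.23 (adjusted p = 0.0673) and -0.96 ± 0.23 (adjusted p = 0.117).

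Type V collagen is a minor partner that sits inside type I fibres and sets their width. Col5a1 had log2 levels of 3.05, 2.86 and 3.04 at 1 month and 2.09, 1.90 and 2.22 at 2 months in dflox, and of 2.80, 2.69 and 2.83 and then 2.03, 2.05 and 2.02 in cardioGRMRdKO. It was the fibrillar gene with the smallest averaged adjusted p, with a fall of 0.82 ± 0.08 (adjusted p = 0.00111), and it fell in each genotype (0.91 and 0.74, adjusted p = 0.0115 and 0.0274). Its triple-helix probe, printed above, gave -0.87. Col5a2 went from 1.29, 1.32 and 1.51 to 0.48, 0.33 and 0.71 in dflox and from 1.35, 1.01 and 1.20 to 0.39, 0.54 and 0.90 in cardioGRMRdKO. Both sets of hearts were apart by age, and the averaged fall was 0.72 ± 0.11 (adjusted p = 0.00782). Col5a3 fell by 0.83 ± 0.15 (adjusted p = 0.0165), and its triple-helix probe, above background on 9 of 12 arrays, gave -0.62 with an adjusted p of 0.532 among probes. On that probe 1 heart stood apart, dflox 1-month replicate 1 at -2.16. The other younger dflox hearts were at -5.32 and -5.19, and the older ones at -5.01, -5.00 and -5.34. Col27a1 alone of the tested fibrillar genes was not called, at -0.43 ± 0.20 (adjusted p = 0.276).

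**Figure D2:**
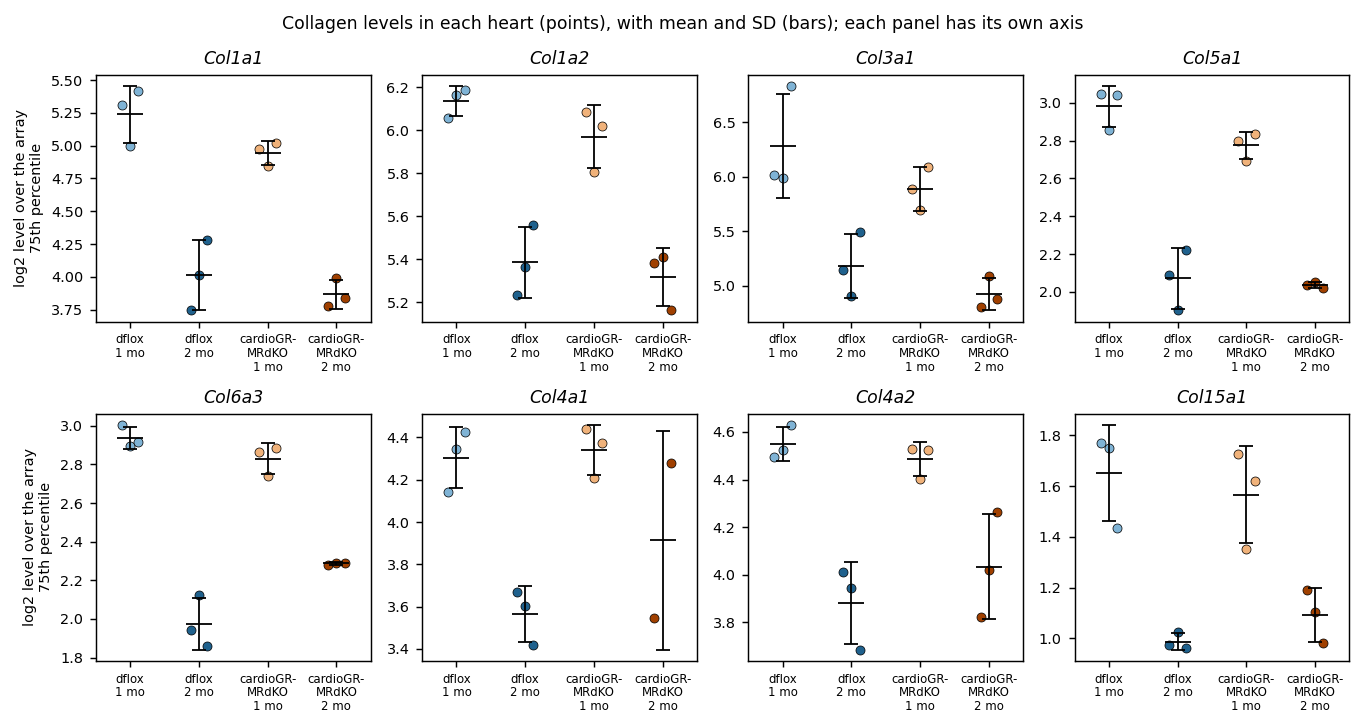
Log2 level over the array's 75th percentile of 8 collagen genes, by group (horizontal axis). Points are hearts, bars the mean and SD, and each panel has its own vertical axis. In the Col1a1 panel the younger hearts lie between 4.84 and 5.41 and the older between 3.74 and 4.28. Col4a1 has 2 hearts in the last group.

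Genes that act on the fibrillar collagens were examined as lists. Beside the counts below, 2.61% of all genes tested fell and 1.99% rose in the averaged age comparison. Of 13 tested genes of propeptide cleavage and fibril assembly, 6 fell in the averaged age comparison and 0 rose: Adamts2 (-0.61) and Adamts3 (-0.73), which cut the amino-terminal propeptide, Bmp1 (-0.50), which cuts the carboxy-terminal one, its enhancer Pcolce (-0.39), and the matrix proteins Sparc (-0.89) and Postn (-0.64). Loxl2, a crosslinking enzyme, fell by 1.17 in each genotype (adjusted p = 0.0115 in dflox and 0.00749 in cardioGRMRdKO), and was the 1 called of 5 lysyl oxidases. In the folding machinery 1 of 16 fell, the prolyl isomerase Fkbp10 (-0.39), with a median of -0.09. In procollagen export 1 of 11 fell, the retrieval receptor Kdelr3 (-0.49). Of 6 genes of collagen breakdown, the gelatinase Mmp2 (-0.57) and the fibroblast protease Fap (-0.35) fell and Mmp9 rose (0.94). Among collagen receptors 1 of 9 fell, the uptake receptor Mrc2 (-0.33), and of 16 profibrotic signals 0 were called, with 2 at an unadjusted p under 0.05 (19.7% of all genes).

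Fibroblast markers other than collagens had median age differences of -0.16 in dflox, -0.02 in cardioGRMRdKO and -0.02 in the average. In the averaged comparison 1 of 11 fell, Pi16 (-0.47, adjusted p = 0.0353), and 0 rose (of all genes 2.61% fell and 1.99% rose). The mean log2 level of the 10 measured in every heart ran from 2.31 to 2.35 in younger and 2.08 to 2.24 in older dflox hearts, and from 2.17 to 2.24 and 1.97 to 2.23 in cardioGRMRdKO hearts. The ages were apart in dflox and overlapped in cardioGRMRdKO. Macrophage markers had a mean level of 1.24 to 1.44 in younger and 1.14 to 1.21 in older dflox hearts, and of 1.57 to 1.67 and 1.33 to 1.55 in cardioGRMRdKO, lower without overlap in both, with 0 of 8 called in the average. Endothelial markers had 3.12 to 3.22 and 2.91 to 3.11 in dflox, apart, and 3.05 to 3.07 and 2.91 to 3.07 in cardioGRMRdKO, overlapping, also with 0 of 8 called. The part that cell numbers had in the collagen differences was not tested.

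Type VI collagen, which links cells to the fibrillar matrix, had 3 tested genes, and 2 fell. Col6a3 had levels of 3.00, 2.90 and 2.92 in younger and 1.94, 2.12 and 1.86 in older dflox hearts. In cardioGRMRdKO they were 2.87, 2.74 and 2.88 and then 2.28, 2.29 and 2.29. Every older heart was below every younger heart of its genotype. Col6a3 fell by 0.96 ± 0.10 in dflox (adjusted p = 0.00778) and by 0.75 ± 0.07 in the average (adjusted p = 0.00111), and stood at -0.54 ± 0.10 in cardioGRMRdKO (adjusted p = 0.051). Col6a2 fell by 0.60 ± 0.12 (adjusted p = 0.0259), and Col6a1 gave -0.59 ± 0.15 (adjusted p = 0.0517).

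All 9 basement membrane collagens had averaged age differences below 0, with a median of -0.53, and 4 were called. Col4a1 and Col4a2 encode the chains of the common type IV network, and their RefSeq starts (GRCm38.p6) lie 21 bases apart on opposite strands. Col4a1 had log2 levels of 4.14, 4.35 and 4.43 and then 3.67, 3.6 and 3.42 in dflox, and of 4.44, 4.21 and 4.37 and then 3.55 and 4.28 in cardioGRMRdKO, where replicate 2 at 2 months was an outlier spot and left the fit. Col4a2 had 4.49, 4.53 and 4.63 and then 4.01, 3.95 and 3.68 in dflox. In cardioGRMRdKO it had 4.53, 4.40 and 4.53 and then 3.82, 4.02 and 4.26. For Col4a1 the ages overlapped in cardioGRMRdKO, and for Col4a2 they did not overlap in either genotype. The averaged falls were 0.58 ± 0.14 for Col4a1 (adjusted p = 0.0462) and 0.56 ± 0.09 for Col4a2 (adjusted p = 0.0103).

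Col15a1, a basement membrane collagen of muscle and capillaries, had log2 levels of 1.77, 1.75 and 1.44 and then 0.98, 1.02 and 0.96 in dflox, and of 1.72, 1.35 and 1.62 and then 1.19, 1.10 and 0.98 in cardioGRMRdKO. It fell by 0.57 ± 0.09 in the average (adjusted p = 0.00896). Col4a6 was also called (-0.53, adjusted p = 0.0369), but its 3 probes differed in sign, at -0.53, 0.12 and -0.21. Col18a1 (-0.35, adjusted p = 0.0555), Col4a5 (-0.59, adjusted p = 0.0537) and Col4a3 (-0.49, adjusted p = 0.0665) did not pass. Of 14 tested partners of the basement membrane, 4 fell and 0 rose (of all genes in the average 2.61% fell and 1.99% rose). They were the laminin chains Lamc1 (-0.57) and Lamb1 (-0.44), the linker Nid2 (-0.61) and Pxdn (-0.80), the peroxidase that crosslinks type IV collagen.

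The short-chain collagens of type VIII, made by endothelial and other vessel cells, both fell. Col8a1 had levels of 3.67, 4.0 and 3.5 and then 3.1, 3.22 and 3.15 in dflox, and of 3.98, 3.86 and 3.99 and then 3.56, 3.63 and 3.30 in cardioGRMRdKO. Its averaged fall was 0.51 ± 0.10 (adjusted p = 0.0196), and that of Col8a2 was 0.35 ± 0.08 (adjusted p = 0.0379). The fibril-associated collagens were mixed. Col14a1 (-0.70) and Col16a1 (-0.62) fell, and Col22a1, a collagen of tissue junctions, rose by 0.50 ± 0.12 (adjusted p = 0.0471). Of the 4 transmembrane collagens 0 were called at either age step or in the average, and 0 had an unadjusted p under 0.05 in the average.

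Col26a1 had the largest called age difference of the family. Its probe lies at chr5:135712690-135712749 (mm7, minus strand), where the array names the gene Emid2. Its log2 level was -0.57, -1.14 and -1.09 in younger and -3.12, -2.69 and -2.97 in older dflox hearts, and 0.13, -0.63 and -0.48 and then -2.70, -2.12 and -2.53 in cardioGRMRdKO hearts. The 2 ages were separated by more than 1 log2 unit in each genotype. Col26a1 was 3.98-fold lower in dflox (adjusted p = 0.0115) and 4.35-fold lower in cardioGRMRdKO (adjusted p = 0.00749) at 2 months. It was read by 1 probe.

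Start windows of the genes that moved with age can be read in part. The 250 bases before the RefSeq start (GRCm38.p6) were at hand for 32 of the 41 collagen genes and for 15 of the 20 that fell. The windows of Col5a1 and Col1a2 are shown because both genes fell with age and both windows hold the letters GGGCGG, the core of the GC box that Sp1-family factors bind. Capitals mark GGGCGG or its reverse complement CCGCCC.
Col5a1 promoter: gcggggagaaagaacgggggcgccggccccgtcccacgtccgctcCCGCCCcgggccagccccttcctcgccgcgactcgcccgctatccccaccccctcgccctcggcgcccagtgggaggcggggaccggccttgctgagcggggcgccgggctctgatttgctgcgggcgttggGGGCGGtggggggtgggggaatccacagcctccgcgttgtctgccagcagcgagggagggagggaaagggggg
Col1a2 promoter: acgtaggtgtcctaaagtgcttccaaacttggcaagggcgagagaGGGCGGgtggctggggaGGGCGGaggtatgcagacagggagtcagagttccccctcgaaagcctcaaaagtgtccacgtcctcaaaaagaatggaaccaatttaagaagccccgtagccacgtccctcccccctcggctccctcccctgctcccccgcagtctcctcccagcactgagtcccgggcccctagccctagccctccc
These windows are chr2:27886175-27886424 and chr6:4505368-4505617, both on the plus strand. GGGCGG on either strand occurred in 18 of the 32 collagen genes, in 10 of the 15 that fell and in 8 of the 14 other tested ones, and in 35.4% of all genes with a window. CCAAT occurred in 12 of 32 (37.5% of all genes) and TATAAA in 5 of 32 (14.3%). The sequence AGAACA, a part of the glucocorticoid response element, occurred in 2 of 32 (18.2% of all genes), and the whole palindrome, AGAACA followed after any 3 bases by TGTTCT, in 0 (0.0111%). A match describes letters in a window, not a bound site.

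Between genotypes no collagen was called at either age, and most stood somewhat lower in cardioGRMRdKO hearts at 1 month. At that age 0 of 37 collagens were called, where 0.98% of all genes were, 29 were below 0 (50.3% of all genes), 12 were lower without overlap (9.84% of all genes), and 9 had an unadjusted p under 0.05 (9.4% of all genes). Among the 12, Col9a3 and Col17a1 entered the test through the bright 1-month dflox group alone. Their place in these counts was in part set by the filter. At 2 months 0 were called, where 2.31% of all genes were, and 3 had an unadjusted p under 0.05 (15.6% of all genes). Averaged over both ages 1 collagen was called, where 4.5% of all genes were. The median difference, cardioGRMRdKO minus dflox, was -0.19 at 1 month and 0.07 at 2 months for the collagens, and 0.00 and -0.10 for all genes. Quantile normalization, a filter for signal on all 12 arrays, or a fit of only the 2 groups gave 1 call at 1 month, as did some fits without 1 heart.

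The called gene was Col8a2, the second chain of type VIII collagen, read at chr4:125758844-125758903 (mm7, plus strand). Its log2 level was -1.56, -1.78 and -1.69 in dflox against -1.96, -2.24 and -2.30 in cardioGRMRdKO at 1 month. At 2 months it was -2.18, -2.06 and -2.05 against -2.47, -2.48 and -2.37. Every cardioGRMRdKO heart was below every dflox heart of its age, and at 2 months it was the 1 collagen that was lower without overlap (11.2% of all genes). Col8a2 fell by 0.41 ± 0.08 in the average (1.33-fold, limma adjusted p = 0.0153). Its difference was -0.49 ± 0.11 at 1 month (adjusted p = 0.0915) and -0.34 ± 0.11 at 2 months (adjusted p = 0.187), neither called. Within slides the difference was -0.68 and -0.56 at 1 month and -0.18 and -0.42 at 2 months. The call was lost without cardioGRMRdKO 1-month replicate 2 (adjusted p = 0.0515) or replicate 3 (adjusted p = 0.0504), with normexp background correction (0.0753) and with the place on the slide as a term (0.262). Without slide 3, which leaves 1 dflox heart at 2 months, the averaged difference was -0.41 and its call is not given.

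Its partner Col8a1 stood the other way at 2 months, with all cardioGRMRdKO hearts above all dflox hearts, at 0.33 ± 0.14 (adjusted p = 0.278). It was 1 of 3 collagens higher in this way at that age, with Col6a3 and Col20a1 (6.55% of all genes). The type I, III and V genes gave averaged genotype differences between -0.32 and 0.03, none called. With Col1a1 as an example, the 95% interval of this difference was -0.46 to 0.02 on the log2 scale. Col26a1 was the collagen with the largest positive averaged difference, 0.54 ± 0.17 (adjusted p = 0.117).

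**Figure D3:**
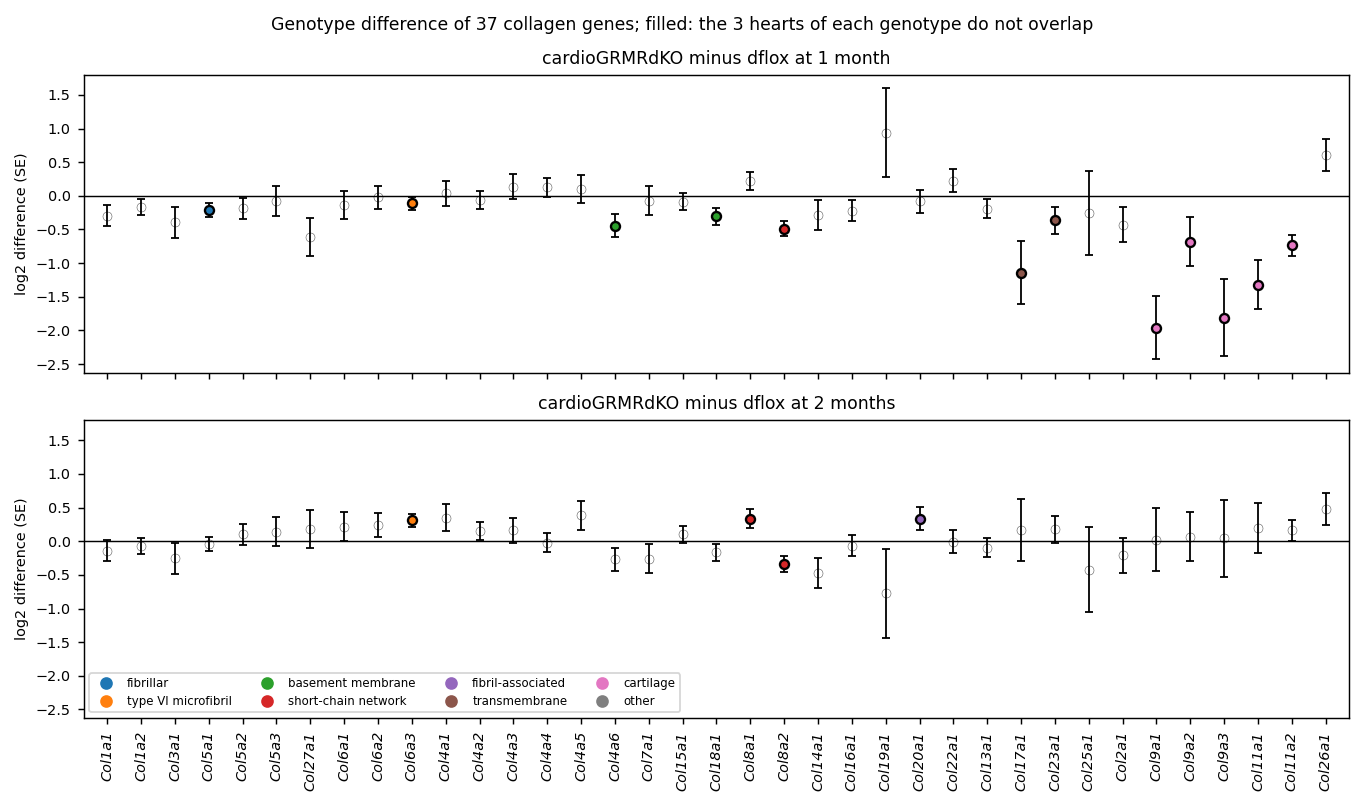
Genotype difference (log2, cardioGRMRdKO minus dflox, with SE) of the 37 collagen genes at 1 month (upper) and 2 months (lower), coloured by class. Filled points are genes whose 3 hearts per genotype did not overlap. At 1 month 5 of the 6 cartilage collagens lie at or below -0.68 without overlap, and at 2 months all 6 lie between -0.21 and 0.19.

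Of the genes of collagen handling, Fkbp10, which assists the folding and crosslinking of type I procollagen, was lower in cardioGRMRdKO hearts at both ages, by 0.57 ± 0.11 at 1 month (adjusted p = 0.0395) and by 0.77 ± 0.11 at 2 months (adjusted p = 0.00494). P4hb, a subunit of prolyl 4-hydroxylase and a general folding enzyme, was higher by 0.42 ± 0.09 in the average (adjusted p = 0.0244). These were the 2 called of 16 folding genes, where 4.5% of all genes were called in the averaged comparison. Lama5, a laminin chain of mature basement membranes, fell by 0.82 ± 0.15 at 2 months (adjusted p = 0.0173). In the lists of fibril assembly, crosslinking, receptors, breakdown, export and profibrotic signals 0 genes were called by genotype, with 0 to 2 per list at an unadjusted p under 0.05 in the averaged comparison (17.6% of all genes).

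The cartilage collagens stood apart at 1 month. All 6 tested genes were lower in cardioGRMRdKO hearts, with a median of -1.03 against 0.06 at 2 months, and 5 of 6 did not overlap between genotypes (9.84% of all genes were lower in this way). One of these, Col9a3, entered the test through the bright 1-month dflox group alone, so that its place in this count was in part set by the filter. For Col9a2 the gap was narrow, with the lowest dflox heart at -1.25 and the highest cardioGRMRdKO heart at -1.28. None of the 6 passed the test at 1 month, and 4 of them had an unadjusted p under 0.05 (9.4% of all genes). The largest differences were those of Col9a1 and Col9a3, chains of the type IX collagen that coats cartilage fibrils. The log2 level of Col9a1 was -3.81, -3.14 and -2.11 in dflox against -4.63, -5.23 and -5.09 in cardioGRMRdKO at 1 month, and -5.46, -6.13 and -4.58 against -5.35, -5.83 and -4.93 at 2 months. The 3 dflox hearts of 1 month were above all other hearts. The difference was -1.96 ± 0.47 at 1 month (adjusted p = 0.103) and 0.02 ± 0.47 at 2 months (adjusted p = 0.987). Col9a3 had -4.27, -3.26 and -3.86 against -4.98, -6.41 and -5.43 at 1 month, a difference of -1.81 ± 0.57 (adjusted p = 0.26), and -6.31, -4.77 and -4.10 against -4.76, -5.75 and -4.54 at 2 months. Col9a3 was well above background on 2 of 3 arrays of the 1-month cardioGRMRdKO hearts, and Col9a1 and Col9a3 each on 2 of 3 arrays in either genotype at 2 months.

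Col11a2, a chain of cartilage type XI collagen, had levels of -1.04, -1.06 and -0.84 in dflox against -1.62, -1.84 and -1.69 in cardioGRMRdKO at 1 month. At 2 months they were -2.34, -2.14 and -1.76 against -1.84, -2.10 and -1.81. It fell with age by 1.10 ± 0.15 in dflox (adjusted p = 0.0184) and gave -0.20 ± 0.15 in cardioGRMRdKO (adjusted p = 0.678). That pair of age differences was compared by the interaction term, 0.90 ± 0.22, which had an unadjusted p of 0.00204 and an adjusted p of 0.934. Its dimmer triple-helix probe, printed above, gave 0.92 for age in dflox, the opposite sign. By the interaction 0 of 37 collagens and 0 of all 18258 genes (0%) were called in limma. At an unadjusted p under 0.05 there were 5 collagens, Col11a1, Col11a2, Col9a1, Col9a3 and Col6a3, and 3.53% of all genes. Of these, Col9a3 entered the test through the bright 1-month dflox group alone. Its place in this count was in part set by the filter.

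Markers of cartilage and of the airway were also lower at 1 month. Beside the counts below, 50.3% of all genes tested were below 0 at that age and 0.98% were called. Of 12 cartilage markers outside the collagens 8 were tested, and all 8 were lower in cardioGRMRdKO hearts at 1 month, with a median of -0.96 and 0 called. Snorc (-4.55), Ucma (-1.79) and Acan (-1.39), chosen after their values were seen, were among them. Their mean log2 level was -0.38, -0.07 and 0.06 in dflox and -1.22, -1.47 and -1.52 in cardioGRMRdKO at 1 month, and -0.95, -1.18 and -0.15 and then -0.59, -1.35 and 0.07 in the 2 groups at 2 months. Their summed linear level ranged from 13.2 to 17.7 and 9.66 to 10.8 in these groups at 1 month, and from 11.2 to 16.2 and 10.1 to 17.7 at 2 months. The 12 airway epithelium markers were all lower at 1 month, with a median of -4.89 and 0 called. The mean of the 11 measured in every heart was 1.22, 2.41 and 2.40 in dflox and -1.63, -2.93 and -3.35 in cardioGRMRdKO, and at 2 months -1.40, -3.11 and 2.88 and then 2.45, -3.35 and 2.52. On a linear scale their summed level ranged from 67.6 to 153 in dflox and from 1.64 to 6.95 in cardioGRMRdKO at 1 month, and from 1.77 to 208 and from 1.67 to 177 at 2 months. These 11 airway markers were above background in every heart, and 7 or 8 of the 8 cartilage markers were. All 8 markers of epicardium and valve were lower at 1 month as well, with a median of -0.63 and 0 called. The mean level of 4 more tissue lists was lower without overlap in cardioGRMRdKO hearts at 1 month. It was 3.22 to 3.44 against 2.97 to 3.04 for smooth muscle and pericytes, -1.39 to -0.97 against -1.69 to -1.46 for skeletal muscle, 3.12 to 3.22 against 3.05 to 3.07 for endothelium and 6.95 to 6.98 against 6.71 to 6.91 for cardiomyocytes. The fibroblast means given above were lower without overlap too, and the macrophage means were higher without overlap at both ages. At 1 month the means of the lung alveolus, Schwann cell, adipocyte, bone and thymus lists overlapped between the genotypes. For the lung alveolus the mean was -1.83 to -1.26 in dflox against -4.53 to -1.49 in cardioGRMRdKO. The part of any of these tissues in the collagen differences was not tested.

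**Figure D4:**
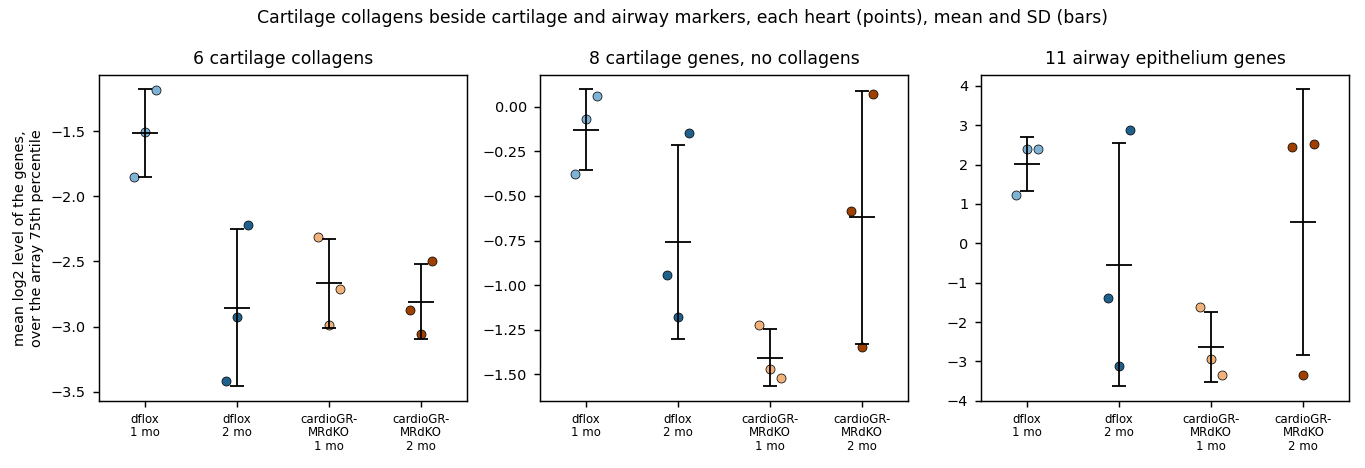
Mean log2 level in each heart (points, with mean and SD) of 6 cartilage collagens, 8 cartilage genes that are no collagens and 11 airway epithelium genes, by group. The 3 dflox hearts of 1 month are higher than the 3 cardioGRMRdKO hearts of 1 month in each panel, and at 2 months the groups overlap.

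The airway means given above can be set beside Col1a1 in the same hearts, taken in the same order. At 1 month Col1a1 was 5.31, 5.0 and 5.41 in dflox and 4.97, 4.84 and 5.02 in cardioGRMRdKO hearts. At 2 months it was 3.74, 4.01 and 4.28 in dflox and 3.77, 3.99 and 3.84 in cardioGRMRdKO hearts. Whether airway tissue had a part in the Col1a1 values was not tested. Of the 31 tested collagens outside the cartilage class 17 fell with age in the average and 1 rose, with a median of -0.56. Their genotype median at 1 month was -0.14. Within slides the cartilage median by genotype was -0.97 and -1.29 at 1 month (slides 1 and 2), and 0.84 and -0.48 at 2 months (slides 1 and 3).

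Col2a1, the chain of the main cartilage collagen, was read by a pair of probes that differ by a shift of 20 bases and gave different patterns, so both are shown with the 40 bases they share in capitals.
Col2a1 probe with 10 spots: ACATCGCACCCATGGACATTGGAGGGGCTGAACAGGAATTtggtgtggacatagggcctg
Col2a1 probe with 1 spot: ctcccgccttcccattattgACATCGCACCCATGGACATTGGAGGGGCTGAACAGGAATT
In mm7 they lie on the minus strand at chr15:97979237-97979296 and chr15:97979257-97979316. The first was brighter and stood for the gene. Its levels were 1.74, 1.51 and 1.99 in dflox at 1 month, 1.64, 1.11 and 1.21 in cardioGRMRdKO at 1 month, 0.29, 0.58 and 0.88 in dflox at 2 months and -0.18, 0.79 and 0.52 in cardioGRMRdKO at 2 months. The second gave, in the same order, -0.47, 0.20 and 0.66, then -1.22, -2.53 and -2.45, then -2.78, -1.88 and -0.78, and then -1.78, -2.19 and -1.22. By the first, the genotypes overlapped at 1 month and the ages were apart in each genotype, neither difference called, whereas by the second the genotypes were apart at 1 month.

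The genotype difference at 1 month was -0.43 on the first probe and -2.20 on the second. The age difference in cardioGRMRdKO was -0.94 on the first and 0.34 on the second. On the first probe the averaged age fall was 1.05 ± 0.18 (adjusted p = 0.0133), and on the second the averaged difference was -0.80 (adjusted p = 0.269 among probes). The 10 spots of the first varied with an SD of 0.07 to 0.13 on an array. Over the 20 collagens with several probes that passed, the probes of 18 had the same sign for the averaged age difference, and those of Col11a2 and Col4a6 did not. For the genotype difference the probes had the same sign in 14 of 20 genes at 1 month and in 8 of 20 at 2 months.

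**Figure D5:**
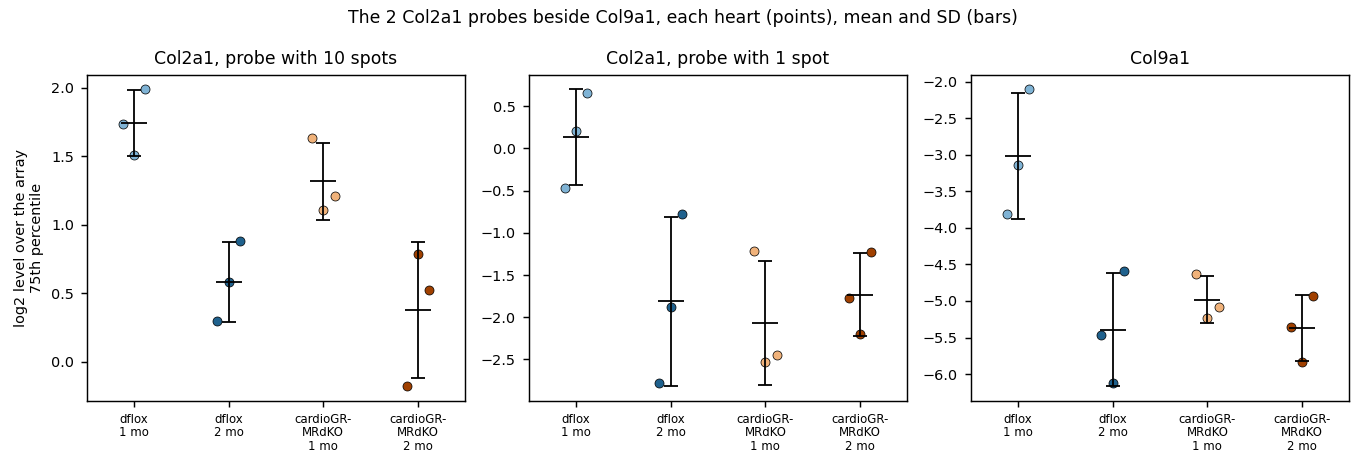
Log2 level in each heart (points, with mean and SD) on both Col2a1 probes and on Col9a1, by group. On the probe with 10 spots the 3 cardioGRMRdKO hearts of 1 month lie between 1.11 and 1.64, among or near the dflox hearts, and on the probe with 1 spot they lie between -2.53 and -1.22, below the dflox hearts.

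Some collagens were near background. Col19a1 had the largest rise of any collagen in dflox, 1.82 ± 0.66 (adjusted p = 0.261), from -5.98, -6.34 and -5.15 to -5.26, -3.60 and -3.15, and was well above background on 1 of 3 arrays of the younger dflox hearts. In cardioGRMRdKO it gave -3.98, -5.44 and -5.23 and then -4.98, -3.64 and -5.71. The ages overlapped in both genotypes. Col17a1 was above background on 1 or 2 arrays of 3 in each group but the younger dflox, through which alone it entered the test, and Col25a1 varied by an SD of 1.01 to 1.28 among cardioGRMRdKO hearts. Their number of arrays above background limits the precision of these values.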

How the data were processed

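RNA of 12 hearts was hybridised to 1-colour Agilent arrays. The deposited scanner files hold intensity values per spot, which the authors extracted with Agilent Feature Extraction (9.5.3.1 per the file headers), background-subtracted, and with probe positions in mm7. Gene names were updated through RefSeq (GRCm38.p6). Here log2 processed intensity minus the array's 75th percentile was used. Control and outlier spots were dropped and the spots of a probe averaged. A probe entered the fit where all 3 arrays of some group exceeded background clearly, and the brightest such probe stood for its gene. One model of the 4 groups was fitted with limma 3.58.1 in R 4.3.3, with Benjamini-Hochberg adjustment over 18258 genes and two-sided tests at 0.05. An exact permutation of 3 against 3 hearts cannot give a p below 0.1. The script was tested on simulated data.

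The collagen genes and all lists were chosen with earlier results of these data known. Values in every heart are given for 8 collagens listed by name, for those called in a comparison other than age averaged over genotypes, and for those of largest difference in 3 comparisons. Comparing age averaged over both genotypes was added after the values were seen. Dcn, Lum and Ogn stand in both the fibril assembly and the fibroblast lists. Alternatives were other scaling, background correction, filters, slide and place terms, the replicate block, and fits without single hearts or slide 3.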

Additional observations from a re-analysis of the deposited data

Results flagged for a closer look

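Col6a3 had genotype differences of opposite sign at the 2 ages. At 1 month all 3 cardioGRMRdKO hearts lay below all 3 dflox hearts, with a difference of -0.11 on the log2 scale, and at 2 months all 3 lay above, with a difference of 0.31. The interaction was 0.42 ± 0.14 (SE), with an unadjusted p of 0.0108 and a limma adjusted p of 0.934, so it was not called. Another Col6a3 probe was well above background on 5 of 12 arrays, and on 0 of 3 of the 2-month cardioGRMRdKO hearts, so its signs are not set against these. Within slides the differences were -0.27 and -0.02 at 1 month, and 0.35 and 0.30 at 2 months.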

How the results depend on the processing

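The calls depended on the setting, and none of the named single-gene differences run under the alternatives changed sign. Those runs did not take every probe on its own. Read probe by probe, some signs differed. Among them, the dimmer probe had the opposite sign for Col11a2 by age in dflox and for Col2a1 by age in cardioGRMRdKO. The collagens called by genotype at 1 month were 0, and 1 with quantile scaling, with a filter for signal on all 12 arrays or with only the 2 groups fitted. By genotype averaged over the ages 1 was called, with 2 under quantile scaling or slide as a fixed term, and 0 under normexp or with place as a term. Without slide 3 the 2-month dflox group held 1 heart, so the calls of that fit are not given. For age in dflox the 7 calls became 11 with quantile scaling, 4 with no filter, 1 with slide as a fixed term and 0 with only the 2 groups fitted. For age in cardioGRMRdKO the 3 calls became 5 under normexp, 1 with no filter, 5 with slide as a random block, 1 with place as a term and 0 with only the 2 groups fitted. For age averaged over both genotypes the 21 calls became 13 under normexp and 13 with no filter. Medians that moved by more than 0.11, the SD between hearts, were genotype at 2 months (-0.046 under normexp), genotype averaged (-0.0100 with place), and age in dflox (-0.57 under normexp and -0.84 without slide 3). Leaving out 1 heart gave 0 to 1 calls for genotype at 1 month and averaged, 0 to 11 for age in dflox, 0 to 3 for age in cardioGRMRdKO and 13 to 20 for age averaged. A fit of only the 2 groups could not be run for the averaged comparisons and the interaction. The cause of these changes was not tested.

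With a replicate block, 16 collagens were called for age averaged, 7 for age in dflox, 3 for age in cardioGRMRdKO and 1 for genotype averaged. Deviations of hearts with equal numbers correlated between -0.30 and 0.55 and were not over 0.1 in all 3 pairs of any comparison, so the numbers were not taken to pair the hearts. Some hearts with equal numbers also share a slide, as do those numbered 2 at 2 months (0.55). Col4a1, Col9a1, Col9a3, Col17a1 and Col19a1 lacked a usable or bright signal in some hearts.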
